A study of Rattus norvegicus with 4 samples.

Results

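The genes described here are the matrix metalloproteinases (Mmp), the ADAMTS proteases and ADAMTS-like proteins (Adamts, Adamtsl) and the tissue inhibitors of metalloproteinases (Timp). They were chosen by symbol, with earlier results of these data known. Taken was every gene of the count files named Mmp with a number and at most 1 letter, Timp with a digit, or Adamts or Adamtsl with a number. This gave 32 of the 25810 genes listed. The files hold 17 Mmp, 11 Adamts, 1 Adamtsl and 3 Timp genes of this kind. Of the 32, 17 had a sum of at least 20 raw reads over the 4 libraries, and these are described gene by gene. Timp4, with 28 reads, lay just inside this limit and Mmp3, with 18, just outside. No read was found in any library for 5 genes, Adamts14, Mmp1a, Mmp27, Mmp7 and Mmp8, and the other 10 had 1 to 18 reads.

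The libraries come from a pair of clones of PC12, a line derived from a pheochromocytoma of the rat adrenal medulla, the wild type wtPC12, labelled as low in REST, and hrPC12, labelled as high in REST and once called PC12-27. Each clone has 2 libraries of bulk RNA. REST is a transcription repressor, and the labels give no treatment and no other genotype for either clone. Since 1 clone stands for each level, an effect of REST and other traits of a clone cannot be told apart. Nothing in the labels says that the libraries of a clone came from separate cultures, and p values then measure the spread between these libraries only, which may be technical.

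Matrix metalloproteinases are zinc-dependent enzymes made as inactive precursors that cleave collagens, laminins and other proteins around the cell. Most are secreted, and the membrane-type enzymes stay anchored to the cell surface. ADAMTS enzymes are secreted relatives with thrombospondin repeats that bind the matrix, and several cut the proteoglycans versican and aggrecan. The ADAMTS-like proteins share these repeats but carry no protease domain. TIMPs block the active site of the metalloproteinases, and TIMP-3, which stays bound to the matrix, also blocks ADAMTS enzymes.

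Rest itself had 43.0 and 132 normalized counts in the wtPC12 libraries and 963 and 914 in those of hrPC12, with values given here and below in the order replicate 1, replicate 2 (log2 FC 3.42, adjusted p = 0.0115 by edgeR). A normalized count is the number of reads divided by the effective library size and put on the scale of the mean library. The libraries held 20975027 to 27246502 reads on genes, and 3 reads, the floor of detection used here, are worth 2.54 to 3.49 normalized counts. Of 10 markers of chromaffin cells, the adrenal cells from which such tumours derive, 9 were listed and 8 tested. Their summed normalized counts were 817725 to 956371 in wtPC12 and 47184 to 51702 in hrPC12, with 5 of the 8 lower in hrPC12 past both thresholds, Th and Dbh among them. Of 9 markers of mesenchymal cells, 8 were tested, with 5 higher and 0 lower past both thresholds, and their sums of 16303 to 18087 in wtPC12 and 95166 to 99921 in hrPC12 rest mostly on Thy1 (log2 FC −0.99) in wtPC12 and on Col3a1 (log2 FC 9.83) in hrPC12. Dcn, also on this list, had a log2 FC of −3.10 without passing. Of 5 markers of muscle, 4 were higher, and the sums of 92.6 to 138 and 4113 to 4499 rest mostly on Myod1 in hrPC12, while Des had a log2 FC of −1.99 without passing. Of 7 markers of white blood cells, 4 had at most 3 reads in each wtPC12 library and 5 in each hrPC12 library. Their sums of 35.0 to 39.5 and 85.4 to 96.0 rest mostly on Cd68 (log2 FC 1.63, without passing). In Ptprc, which defines these cells, 1 read was found in all. Markers of endothelial cells summed to 29.1 to 34.0 and 59.6 to 63.4, mostly from Tek (log2 FC 1.31, without passing), while Cdh5 had a log2 FC of −0.45. The part of these differences in the results that follow was not tested, and in bulk RNA fewer cells of a type and less RNA per cell cannot be told apart.

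In hrPC12, 4 ADAMTS protease genes (Adamts1, Adamts9, Adamts12 and Adamts15) and the inhibitor gene Timp3 were higher, and the collagenase gene Mmp13 was lower. These 6 genes passed both thresholds, which are an adjusted p below 0.01 and a log2 FC, the log2 ratio of hrPC12 to wtPC12, beyond 2 on either side. Both cutoffs are taken from the study, which applied them to DESeq. Here edgeR's test across all genes took the place of DESeq. All 17 members with at least 20 reads were tested, so 5 of 17, or 29.4%, were higher, where 4.84% of all 13726 tested genes were. Adamts12, Adamts15 and Timp3 had 2, 1 and 3 reads in wtPC12 and reached 20 reads only through hrPC12. Their place among the 17 thus depends on the difference that is counted, and the 29.4% carries no test. Lower in hrPC12 was 1 of 17, or 5.88%, beside 5.46% of all tested genes. The libraries of the clones did not overlap in 12 of the 17 members, or 70.6%, beside 73.5% of all tested genes. The median log2 FC of the 17 was −0.055, beside 0.064 over all tested genes. By class, it was −0.84 for the 6 Mmp genes and 5.77 for the 7 Adamts genes, which describes these lists and carries no test. The Mmp median depends on the rule of choice. It leaves out MMP14_RAT (log2 FC 0.28) and MMP16_RAT (log2 FC 4.02), which are listed under other names and described below. The calls rest on wtPC12 replicate 2, since without it edgeR called 0 genes of any kind, where 2203 had a log2 FC past 2 at an unadjusted p under 0.05. In that fit 5 of the 6 genes had an adjusted p of 0.0134 to 0.0266, and Adamts12, with no read in the remaining wtPC12 library, was not tested. Without wtPC12 replicate 1, Adamts15 likewise had no wtPC12 read and was not tested, and the 4 others that were higher passed again.

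**Figure D1:**
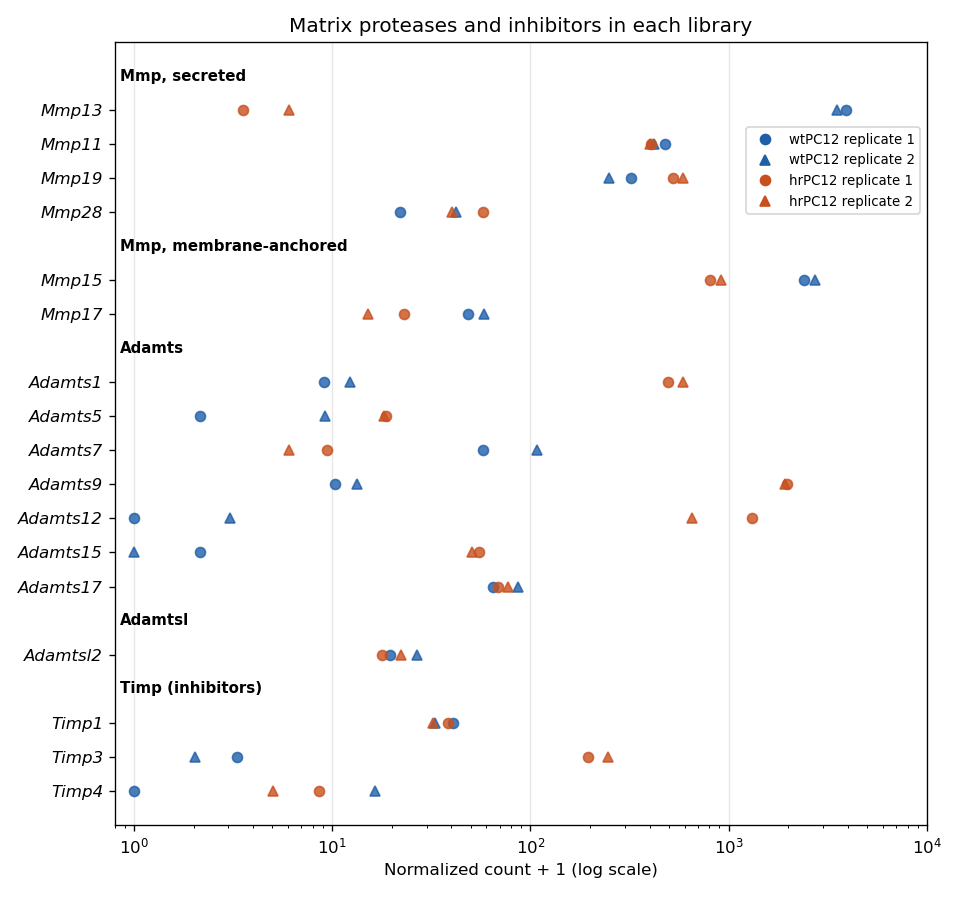
Normalized counts plus 1 (horizontal log axis) of the 17 members with at least 20 reads, by class, with 1 point per library (circles replicate 1, triangles replicate 2, blue wtPC12, orange hrPC12). Before 1 is added, Mmp13 has its wtPC12 points at 3919 and 3503 and its hrPC12 points at 2.54 and 5.05, while Adamts1, Adamts9, Adamts12, Adamts15 and Timp3 have the reverse order.

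Mmp13 codes for a collagenase that cuts fibrillar collagens and is known from cartilage and bone. It had 3919 and 3503 normalized counts in the wtPC12 libraries and 2.54 and 5.05 in the hrPC12 libraries, which are 3 and 5 raw reads. Both wtPC12 libraries lay far above both hrPC12 libraries, and what was left in hrPC12 was 0.0684% and 0.136% of the wtPC12 mean. Means were 3711 ± 294 (SD, n = 2) for wtPC12 and 3.80 ± 1.78 (SD, n = 2) for hrPC12. The fitted log2 FC was −9.92 with a standard error (SE) of 0.35, and edgeR gave an adjusted p of 0.000261. Summed over the libraries of a clone, Mmp13 was 1004-fold lower in hrPC12, with an exact 95% interval of 509 to 2326 that covers counting error only. In wtPC12, reads on Mmp13 made up 53.0% and 47.9% of all reads on the 32 members, and in hrPC12 0.0420% and 0.0902%. These are shares of reads without regard to gene length. They leave out family genes outside the rule, of which MMP14_RAT had 2730 and 3621 reads in wtPC12.

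The rat Mmp13 gene stands at one end of a cluster of 10 Mmp genes, which in the RefSeq annotation of the assembly GRCr8 run in the order Mmp13, Mmp12, Mmp1b, Mmp3, Mmp1a (there named Mmp1), Mmp10, Mmp8, Mmp27, Mmp20 and Mmp7. GRCr8 is not the build of the counts and is used for names, neighbours and sequences. Mmp13 had 6784 reads over the 4 libraries. None of the other 9 reached 20 reads. Mmp12, the macrophage elastase gene that lies next to it, had 2 and 1 reads in wtPC12 and 1 and 4 in hrPC12. Mmp3, a stromelysin gene, had 0 and 1 reads in wtPC12 and 9 and 8 in hrPC12, and its relative Mmp10 had 2 and 0, then 5 and 2. Mmp20, known from tooth enamel, had no read in wtPC12 and 3 and 7 in hrPC12, and Mmp1b had none in wtPC12 and 2 and 1 in hrPC12. None of these 9 genes passed the filter for the test. With at most 9 reads in a library, no difference is read from their counts. Mmp9, a gelatinase gene outside the cluster, had 4 and 0 reads in wtPC12 and 6 and 2 in hrPC12.

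**Figure D2:**
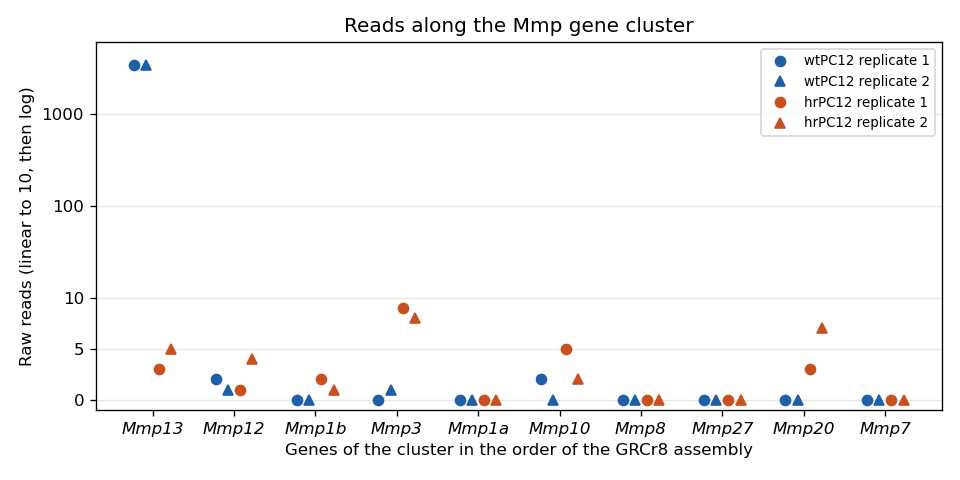
Raw reads (vertical axis, linear to 10 and logarithmic above) on the 10 genes of the Mmp cluster in their order along GRCr8, with 1 point per library. Mmp13 has 3372 and 3404 reads in wtPC12, and every other point of the cluster, Mmp13 in hrPC12 included, lies at 9 reads or fewer.

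Promoters of the Mmp cluster are known for sites of the factor AP-1, and their letters are shown because the cluster shares them while only Mmp13 had more than 18 reads. In the 250 bases before the annotated start, the AP-1 motif TGANTCA (which reads as itself on the other strand) was found in 7 of the 10 promoters of the cluster and in 0 of the 18 promoters listed for 17 other members. It was found in 6.34% of all 33469 RefSeq promoters. The TATA box motif TATAAA, searched on the strand of the gene, was in 7 of the 10 and in 3 of the 18, beside 8.06% of all, and the motifs do not overlap in the stretches shown. The left part of the REST site, TTCAGCACC on either strand, was in none of the 28 promoters and in 0.305% of all. With a motif this rare, its absence from 28 promoters says nothing about REST sites, and bases outside the 250 were not searched. A match is a description of letters and not a site of binding. RefSeq holds promoters for 27 of the 32 members, and no entry was matched for Adamts5, Adamts15, Mmp17, Mmp19 and Mmp9. The sequences run 5′ to 3′ on the strand of the gene in GRCr8 and end at the base before the annotated start, with AP-1 and TATA motifs in capitals:
Mmp13 (chr8:12782579-12782828, plus strand): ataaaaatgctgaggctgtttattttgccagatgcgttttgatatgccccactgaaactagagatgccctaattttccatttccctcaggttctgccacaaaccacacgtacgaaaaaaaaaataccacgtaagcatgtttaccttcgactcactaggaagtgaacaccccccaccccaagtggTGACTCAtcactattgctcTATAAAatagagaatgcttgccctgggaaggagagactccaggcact
Mmp12 (chr8:12866552-12866651, plus strand): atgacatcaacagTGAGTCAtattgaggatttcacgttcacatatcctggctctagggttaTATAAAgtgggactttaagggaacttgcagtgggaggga
Mmp3 (chr8:12925181-12925280, plus strand): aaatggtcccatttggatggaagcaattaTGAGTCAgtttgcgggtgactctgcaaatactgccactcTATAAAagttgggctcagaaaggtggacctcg
Mmp10 (chr8:12974607-12974706, plus strand): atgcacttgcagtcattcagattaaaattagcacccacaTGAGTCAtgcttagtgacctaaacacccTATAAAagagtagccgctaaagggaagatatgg
Mmp1a (chr8:12943353-12943452, plus strand): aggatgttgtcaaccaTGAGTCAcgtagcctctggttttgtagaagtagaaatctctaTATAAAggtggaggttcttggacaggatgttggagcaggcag
Mmp20 (chr8:13074179-13074278, plus strand): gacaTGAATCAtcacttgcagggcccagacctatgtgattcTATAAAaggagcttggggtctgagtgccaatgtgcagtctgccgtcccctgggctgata
Mmp7 (chr8:13132943-13133042, plus strand): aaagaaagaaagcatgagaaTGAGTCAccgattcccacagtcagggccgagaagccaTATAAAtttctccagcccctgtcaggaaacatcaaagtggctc

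In Mmp13 the AP-1 motif starts 66 bases before the annotated start and the TATA box 47 bases before it. The other 6 carry the pair in the same order, with an AP-1 motif that begins 61 to 96 bases before the start. GC made up 36.0% to 48.0% of the 250 bases in the cluster, with a median of 41.4%, and 46.0% to 77.6% in the other 18 promoters, with a median of 63.6%. Over all promoters the median was 51.2%. Among the genes higher in hrPC12, GC was at 69.6% for Timp3, 71.6% for Adamts9, 65.2% for Adamts1 and 63.6% for Adamts12. The promoters of Timp3 and Adamts9 are shown in full length beside that of Mmp13, and the last 100 bases for Adamts1, the one of these with a TATA box, and for Adamts12:
Timp3 (chr7:19459559-19459808, minus strand): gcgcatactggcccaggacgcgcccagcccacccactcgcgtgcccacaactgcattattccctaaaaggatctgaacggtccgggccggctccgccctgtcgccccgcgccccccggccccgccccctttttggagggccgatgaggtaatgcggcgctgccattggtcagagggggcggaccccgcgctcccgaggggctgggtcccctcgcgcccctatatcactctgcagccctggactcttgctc
Adamts9 (chr4:127019877-127020126, minus strand): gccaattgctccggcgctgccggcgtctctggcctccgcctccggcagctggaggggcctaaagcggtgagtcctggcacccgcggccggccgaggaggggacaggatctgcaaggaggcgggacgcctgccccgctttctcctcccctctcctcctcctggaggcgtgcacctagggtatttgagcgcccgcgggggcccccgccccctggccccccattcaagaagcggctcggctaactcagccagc
Adamts1 (chr11:38427385-38427484, minus strand): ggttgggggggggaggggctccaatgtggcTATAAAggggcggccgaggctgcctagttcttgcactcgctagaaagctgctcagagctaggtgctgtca
Adamts12 (chr2:61759887-61759986, plus strand): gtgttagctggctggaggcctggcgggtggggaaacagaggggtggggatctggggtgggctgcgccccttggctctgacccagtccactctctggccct

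The other secreted Mmp genes did not pass the thresholds. Mmp11 (stromelysin-3, which furin activates inside the cell) had 475 and 421 normalized counts in wtPC12 and 404 and 402 in hrPC12. Its hrPC12 values lay below the wtPC12 values by less than the difference between the wtPC12 libraries (log2 FC −0.15, SE 0.24, adjusted p = 0.637). Mmp19, another secreted enzyme, had 321 and 248, then 526 and 589, without overlap. Its log2 FC of 0.97 (SE 0.27, adjusted p = 0.0452) reached neither threshold. Mmp28, or epilysin, had 20.9 and 41.2, then 56.7 and 39.4, and its clones overlapped (log2 FC 0.63, adjusted p = 0.362). In Mmp21 7 reads were found over the 4 libraries.

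Both membrane-anchored Mmp genes of the list had lower counts in each hrPC12 library than in either wtPC12 library. Of all tested genes, 73.5% had no overlap between the clones in either direction. The membrane-type genes MMP14_RAT and MMP16_RAT, outside the rule of choice, lay higher in hrPC12 without overlap and are given below. Mmp15, a membrane-type enzyme, had 2401 and 2733 normalized counts in wtPC12 and 809 and 917 in hrPC12, a 2.97-fold lower level. Its adjusted p of 0.00477 was past the threshold and its log2 FC of −1.57 (SE 0.19) was not. Mmp17, whose product is held to the membrane by a lipid anchor, had 47.6 and 57.6, then 22.0 and 14.2 (log2 FC −1.53, SE 0.43, adjusted p = 0.04995).

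The count files list 4 further genes of the family under UniProt entry names, outside the rule of choice, and they were looked up after the values of the members had been seen. MMP14_RAT, a membrane-type collagenase that activates the gelatinase MMP-2, had 3173 and 3726 normalized counts in wtPC12 and 4105 and 4285 in hrPC12. The clones did not overlap and the log2 FC was 0.28 (SE 0.17, adjusted p = 0.249). MMP16_RAT, another membrane-type enzyme, had 12.8 and 30.9, then 355 and 365. It was higher in hrPC12 past both thresholds, 16.3-fold (log2 FC 4.02, SE 0.49, adjusted p = 0.00460), with a log2 FC of 3.51 without wtPC12 replicate 1 and 4.80 without replicate 2 of that clone. TIMP2_RAT, whose product both inhibits and, with MMP14, helps to activate MMP-2, had 868 and 896, then 2233 and 2418. Its adjusted p of 0.00548 was past the threshold and its log2 FC of 1.40 (SE 0.18) was not. MMP23_RAT had 5 reads in all.

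**Figure D3:**
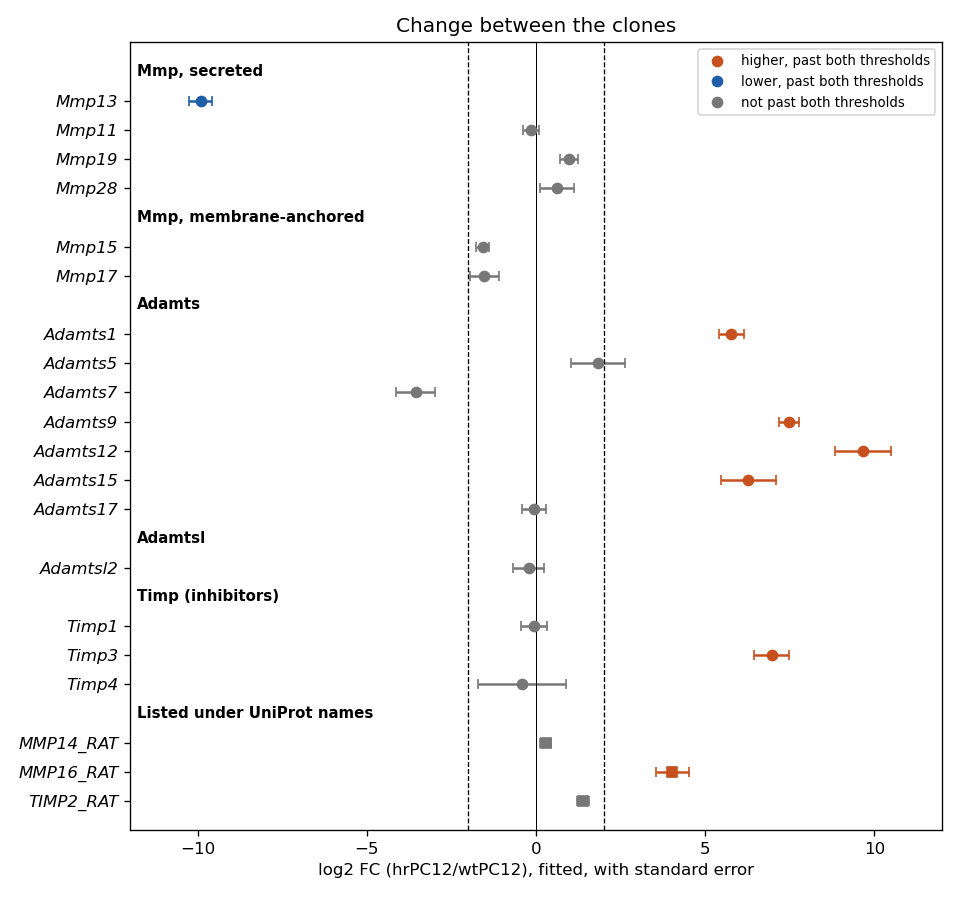
Fitted log2 FC (hrPC12/wtPC12, horizontal axis) with its standard error for the 17 members and, as squares, for 3 genes listed under UniProt names. Dashed lines mark a log2 FC of 2 in either direction, and colour marks the genes past both thresholds, which are Mmp13 on the left and Adamts1, Adamts9, Adamts12, Adamts15, Timp3 and MMP16_RAT on the right.

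Among the ADAMTS genes, 4 of 7 tested were higher in hrPC12 past both thresholds and none was lower, beside 4.84% and 5.46% of all tested genes. Adamts9, a versican-cleaving protease, had 9.30 and 12.3 normalized counts in wtPC12 and 1980 and 1920 in hrPC12. These hrPC12 libraries differed by much less than the clones did, and the level was 177-fold higher (log2 FC 7.47, SE 0.29, adjusted p = 0.000285). Adamts1, which also cuts versican and aggrecan, had 8.13 and 11.3, then 493 and 589, or 54.6-fold higher (log2 FC 5.77, SE 0.37, adjusted p = 0.000776). Its neighbour on the chromosome, the aggrecanase gene Adamts5, had 1.16 and 8.23, then 17.8 and 17.2. It lay higher in both hrPC12 libraries without passing the test (log2 FC 1.83, SE 0.79, adjusted p = 0.134), and leaving out wtPC12 replicate 1 or replicate 2 gave a log2 FC of 1.04 or 3.78.

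Adamts12 and Adamts15 had at most 2 reads in a wtPC12 library. Adamts12, one of the enzymes that cut the cartilage protein COMP, had 0 and 2 reads in the wtPC12 libraries and 1560 and 645 in the hrPC12 libraries. In normalized counts these are 0 and 2.06, then 1319 and 652. With 2 reads in wtPC12, the ratio of hrPC12 to wtPC12 was 930, with an exact 95% counting interval of 257 to 7686 (log2 FC 9.67, SE 0.83, adjusted p = 0.00162). The hrPC12 libraries differed from each other, with a log2 ratio of replicate 1 to replicate 2 of 1.02. Over the 7 tested genes centred on it along the chromosome the median of this ratio was 0.86. The log2 FC was 9.07 without hrPC12 replicate 1 and 8.78 without the wtPC12 library that held no read. Adamts15, another versican-cleaving enzyme, had 1 and 0 reads in wtPC12 and 64 and 49 in hrPC12, and its normalized counts in hrPC12 were 54.1 and 49.5. The ratio was 95.3 with a counting interval of 16.8 to 3799 (log2 FC 6.27, SE 0.81, adjusted p = 0.00548), and the log2 FC was 4.40 with a prior count of 2 in the fit and 5.34 without wtPC12 replicate 2. The intervals of Adamts12 and Adamts15 are wide because so few reads in wtPC12 set them, and they cover counting error only.

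The same high ratio of hrPC12 replicate 1 to replicate 2 was found around Mmp17 and Mmp28, with medians of 0.80 and 0.91 over 7 neighbouring genes. Around the other 14 tested members it lay between −0.21 and 0.11. Without hrPC12 replicate 1 the log2 FC of Mmp17 was −1.89 and that of Mmp28 was 0.34.

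Adamts7, which like Adamts12 cuts COMP, ran in the opposite direction. It had 56.9 and 107 normalized counts in wtPC12 and 8.46 and 5.05 in hrPC12, without overlap, an 11.8-fold lower level. Its log2 FC of −3.56 (SE 0.57) was past the threshold and its adjusted p of 0.0103 was not. It passed both thresholds with edgeR's RLE factors (adjusted p = 0.00260), with library totals alone (0.00440), with every gene that had a read (0.00191), with edgeR's filterByExpr (0.00896) and with DESeq2 (5.10e-05). It did not with the legacy option off (0.0108), without hrPC12 replicate 2 (0.0117) or without wtPC12 replicate 2 (0.0425). Adamts17, whose product is tied to fibrillin microfibrils, had 63.9 and 85.4, then 67.7 and 75.8, with the hrPC12 libraries between those of wtPC12 (log2 FC −0.06, SE 0.35, adjusted p = 0.902). Adamtsl2, which binds fibrillin and has no protease domain, had 18.6 and 25.7, then 16.9 and 21.2, and the clones overlapped (log2 FC −0.22, SE 0.45, adjusted p = 0.717). Adamts2 and Adamts3, which trim the ends of procollagens, had 8 and 2 reads in all, and Adamts18 had 1.

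**Figure D4:**
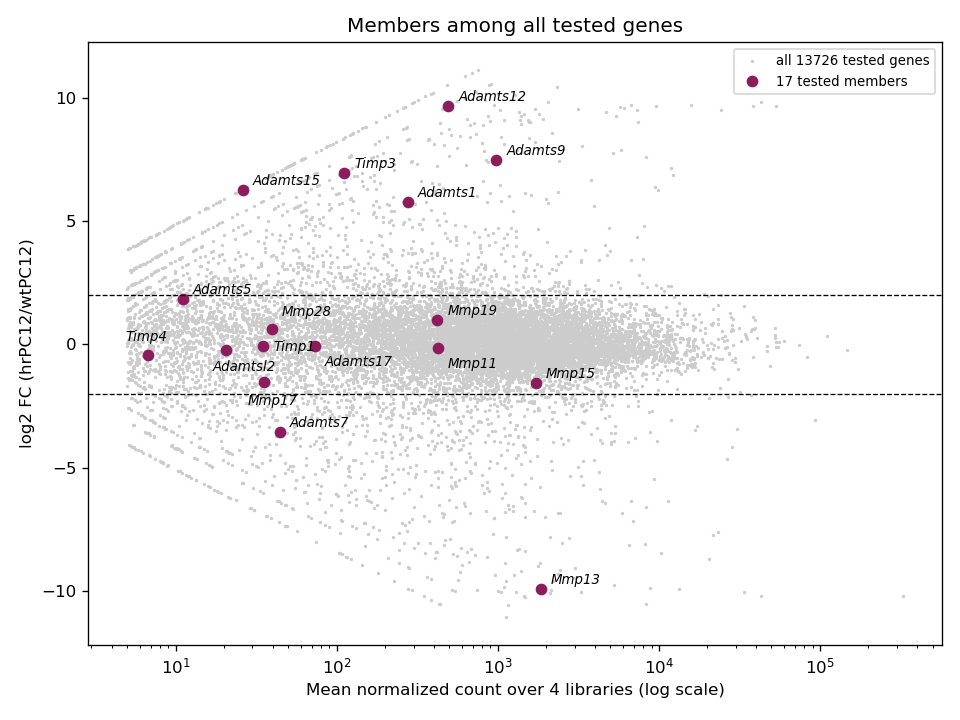
Log2 FC (hrPC12/wtPC12, vertical axis) against the mean normalized count over the 4 libraries (horizontal log axis) for all 13726 tested genes in grey and the 17 members in purple. The 5 members past both thresholds on the upper side lie between 5.77 and 9.67, Mmp13 lies at −9.92, and 10 of the other 11 lie within the dashed lines at 2, with Adamts7 below them.

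Of the 3 inhibitor genes on the list, 1 was higher in hrPC12 past both thresholds and 0 were lower, beside 4.84% and 5.46% of all tested genes. Timp3 had 2 and 1 reads in the wtPC12 libraries and 229 and 244 in the hrPC12 libraries, or 2.32 and 1.03, then 194 and 247 normalized counts. Both hrPC12 libraries lay far above wtPC12, where the reads were at the floor. The ratio was 133, with an exact 95% counting interval of 45.2 to 647 (log2 FC 6.96, SE 0.53, adjusted p = 0.00116). The log2 FC was 7.56 without wtPC12 replicate 1, 6.49 without wtPC12 replicate 2, and 5.93 with a prior count of 2 in the fit. Timp1, which is secreted and soluble, had 39.5 and 31.9, then 37.2 and 31.3 normalized counts, and the libraries of the clones interleaved. Its log2 FC of −0.055 had an SE of 0.39 (adjusted p = 0.919). Timp4 had 0 and 15.4 in wtPC12 and 7.61 and 4.04 in hrPC12, so that the wtPC12 libraries enclosed those of hrPC12 (log2 FC −0.42, SE 1.30, adjusted p = 0.816), and at 28 reads in all a change of this size was not detectable.

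In GRCr8 the 3 Timp genes of the list lie inside synapsin genes, Timp1 in Syn1, Timp4 in Syn2 and Timp3 in Syn3, and Timp1 and Timp4 are annotated on the strand opposite to their host. The TruSeq kit named in the labels does not mark strand, so reads where exons of guest and host overlap cannot be told apart. Synapsins are proteins of the synaptic vesicle surface. Syn1 had 687 and 972 normalized counts in wtPC12 and 578 and 589 in hrPC12 (log2 FC −0.51, adjusted p = 0.182), beside the level of Timp1 given above. Syn3 had 13.9 and 22.6, then 37.2 and 38.4 (log2 FC 1.04, adjusted p = 0.131), beside the 194 and 247 of Timp3 in hrPC12. The second of these genes, listed as SYN2_RAT and looked up after the values had been seen, had 1741 and 1957, then 404 and 436. It was lower in hrPC12 past both thresholds (log2 FC −2.14, SE 0.20, adjusted p = 0.00224), while Timp4 inside it did not pass.

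For the lists that follow, the shares of all tested genes are 4.84% higher, 5.46% lower and 46.3% at an unadjusted p under 0.05, and the median log2 FC of all is 0.064. Of 14 genes put on a list for activation of Mmps and proteolysis around the cell, 11 were listed and 8 tested. By edgeR 0 were higher and 1 lower past both thresholds, with 4 at an unadjusted p under 0.05. Furin had a log2 FC of −1.25 (adjusted p = 0.00560) and Plaur one of 2.45 (adjusted p = 0.0405), and each passed only 1 of the thresholds. The lower one was Plat, the tissue plasminogen activator, with 8837 and 7581, then 1020 and 1067 normalized counts (log2 FC −2.98, adjusted p = 0.000723). Of 10 genes put on a list of protease inhibitors other than Timps, 7 were tested, with 2 higher and 2 lower. A2m, the broad protease trap α2-macroglobulin, had 0 and 1 reads in wtPC12 and 1090 and 1011 in hrPC12 (log2 FC 10.50). Serpine2 was the other higher gene (log2 FC 3.55). Spock1 (log2 FC −6.09) and Spock2 (log2 FC −4.22), testican proteoglycans, were lower, and whether each acts as an inhibitor here was not tested. Reck, the membrane-anchored inhibitor of metalloproteinases, had 601 and 687, then 545 and 611 (log2 FC −0.16, adjusted p = 0.611).

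Of 20 matrix substrates, 16 were listed and 12 tested, with 6 higher and 2 lower in hrPC12 past both thresholds and a median log2 FC of 2.58. The collagen gene Col3a1 (log2 FC 9.83) and Thbs2 (log2 FC 9.65), a thrombospondin gene, rose most, and Ncan, the brain proteoglycan neurocan that ADAMTS enzymes can cut, was the most reduced (log2 FC −8.62). Versican, the substrate of several ADAMTS enzymes above, had 2 and 4 reads in wtPC12 and 16 and 18 in hrPC12 (Vcan, log2 FC 2.24, adjusted p = 0.0435), and aggrecan (Acan) had 2 reads in all. Of 16 related metalloproteases of the Adam and astacin kinds, 10 were tested, with 1 higher, Adam11 (log2 FC 3.61), and 0 lower by edgeR's test, where 4 had an unadjusted p under 0.05. The 3 clearance receptors on the list, Lrp1, Lrp2 and Mrc2, had log2 FC from −0.82 to 0.62, and by edgeR 0 passed, with 0 at an unadjusted p under 0.05.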

How the data were processed

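The 4 RNA-Seq libraries were sequenced on an Illumina HiSeq. The submitters' processing notes name the rat build rn4, TopHat2 2.0.4, HTSeq 0.5.3 and DESeq 1.9.12. For each library the authors deposited raw counts per gene, with no filter. The strand setting and annotation release are not given in the sources used here. Reads on genes were 37.9% to 41.3% of those accounted for, and the closing totals of other reads were left out. The authors' table of their DESeq comparison, which holds means per clone, fold changes and p values, was not used. Replicates differed far beyond sampling noise (chi-square per degree of freedom 86.8 in wtPC12 and 62.9 in hrPC12).

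Counts were fitted in R 4.3.3 with edgeR 4.0.16, with TMM factors, the quasi-likelihood test with the legacy option on, the study's filter (mean normalized count 5 or more, and reads in each of the clones), and Benjamini-Hochberg adjustment across the 13726 genes left. Standard errors were taken from the log2 FC and its F statistic. All adjusted p values in the report are from this fit unless another setting is named. Alternatives were DESeq2 1.42.0, RLE factors, library totals alone, filterByExpr, no filter beyond 1 read, the legacy option off, a prior count of 2, a threshold of 0.05 on the adjusted p, and leaving out each library. The scripts were tested on simulated counts. With 2 libraries per clone, the smallest p of a 2-sided exact permutation test is 0.333.

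Members with at least 20 reads were described, with the value of each library, and members below by their reads. The members and gene lists were chosen with earlier results of these data known. Of the tested genes 65.2% could be placed along GRCr8 by symbol for the medians over neighbours. Promoter sequences are those of RefSeq for GRCr8. Levels of different genes were not compared, and the balance of proteases to inhibitors was not computed, since no transcript lengths were used here. Protein sequences were not analysed here.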

Additional observations from a re-analysis of the deposited data

How the results depend on the processing

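Across the settings with all 4 libraries, 5 members were higher in hrPC12 in each, Adamts1, Adamts9, Adamts12, Adamts15 and Timp3. With no filter beyond 1 read, 7 members had a log2 FC above 2 at an unadjusted p under 0.05 by edgeR, where the main fit had 5. The count of lower members was 1, Mmp13, and became 2 with Adamts7 added under DESeq2, RLE factors, library totals alone, filterByExpr, no filter beyond 1 read and a threshold of 0.05 on the adjusted p, and also without wtPC12 replicate 1 or hrPC12 replicate 1. The cause was not tested. With each library left out in turn, 0 to 5 members were higher and 0 to 2 lower, and 0 to 1821 of all tested genes passed both thresholds. Each 0 came without wtPC12 replicate 2, where edgeR's smallest adjusted p was 0.0134, and 2203 genes had an unadjusted p under 0.05 and a log2 FC past 2. DESeq2 was run on all 4 libraries only. In the edgeR fit without wtPC12 replicate 2 the adjusted p was 0.0136 for Mmp13, 0.0134 for Adamts9, 0.0160 for Adamts1, 0.0196 for Timp3, 0.0266 for Adamts15 and 0.0163 for MMP16_RAT, while Adamts12 and Timp4, without a read in the other wtPC12 library, were not tested. Signs turned only in genes with a log2 FC near 0, namely Timp1 with library totals alone (0.010) and with a library left out (−0.20 to 0.072), Adamts17 (−0.28 to 0.17) and Adamtsl2 (−0.46 to 0.032) with a library left out. No paired analysis was possible because the labels wt1, wtb, 27a and 27b share no set of replicate numbers. Depth limits Timp4, Adamts5 and the 15 members with fewer than 20 reads.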
